A study of Mus musculus with 63 samples.

Results

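The voltage-gated sodium channel alpha subunits of the brain and the alpha2delta subunits of voltage-gated calcium channels were examined in 4 sorted populations of mouse cortical cells after a burn or a sham injury. The group held 9 of the 56980 genes in each count table, chosen by symbol and not by a threshold on their values: Scn1a, Scn2a, Scn3a, Scn8a and Scn7a for the sodium channels, and Cacna2d1, Cacna2d2, Cacna2d3 and Cacna2d4 for alpha2delta. RNA-seq was done on 63 libraries, and 58 of them, from 17 mice, were used here. All mice were female C57BL/6J animals, 12 weeks old at the start, that received AAV5-CamKII-eGFP and AAV1-mDlx-mRuby2 in the primary motor cortex. Burn-injured mice had a full-thickness burn of 7 to 8% of the body surface on the right flank, sham-injured mice were shaved and not burned, and tissue was taken 5 weeks later. CaMKII positive cells carried eGFP alone (4 burn, 6 sham) and CaMKII-mDlx double-positive cells carried both reporters (9 burn, 7 sham), and both were sorted from motor cortex. ACSA2-positive cells, labelled as astrocytes (9 burn, 8 sham), and CD11b-positive cells, labelled as microglia (8 burn, 7 sham), came from the cortex caudal to it, so that for those pairs the sorted population and the region cannot be told apart. Which cells carried a reporter depended on viral transduction and on the promoter in each vector.

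Voltage-gated sodium channels open during depolarisation and carry the upstroke of the action potential. Nav1.1 (Scn1a) is prominent in inhibitory interneurons, Nav1.2 (Scn2a) and Nav1.6 (Scn8a) sit at the axon initial segment of excitatory neurons, Nav1.3 (Scn3a) is best known from the developing and injured nervous system, and Nax (Scn7a) is a sodium-sensing relative found in glia and ependymal cells of the circumventricular organs. Alpha2delta subunits are extracellular proteins that bring calcium channels to the membrane. The products of Cacna2d1 and Cacna2d2 bind gabapentin and pregabalin, drugs used in neuropathic pain, whereas those of Cacna2d3 and Cacna2d4 do not.

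The libraries that were kept held 13346143 to 134703744 counts, and each level is in CPM (counts per 1000000 counts in the library). A library without a count of a gene may still hold up to 3 counts at this depth, which is 0.0223 to 0.225 CPM per library in CaMKII positive cells and covers counting error only. The sort labels were compared with the RNA of marker genes, and the neuronal labels were not borne out by it. The study's evidence for the neuronal labels was reporter protein, from the sort gates and from imaging flow cytometry of intact cells. In CaMKII positive libraries the 10 astrocyte markers summed to 20341 CPM (13381 to 24863) and the 8 endothelial markers to 6161 CPM, against 58.2 CPM for the 7 excitatory neuron markers. In double-positive libraries the 10 microglia markers summed to 21520 CPM and the 11 inhibitory neuron markers to 2.06 CPM (0.845 to 3.75). ACSA2-positive libraries summed to 42140 CPM for astrocyte markers and CD11b-positive libraries to 25743 CPM for microglia markers. The populations are therefore named by their sort gate. The part of other cell types in the levels below was not tested, and in such sorted bulk samples fewer cells of a type and less RNA per cell cannot be told apart.

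The 250 bases upstream of the annotated start were compared among the 7 of the 9 genes that had an entry in the RefSeq promoter table (GRCm38.p6). Shown are 4 of them. Scn8a and Scn1a had the highest and lowest mean level among the sodium channels in CaMKII positive and ACSA2-positive cells. Scn7a varied most in CaMKII positive cells, and Cacna2d1 is a gabapentinoid-binding subunit. Capitals mark CG dinucleotides, each line runs 5′ to 3′ on the gene's strand, and no reading of cause is attached to them.
Scn8a: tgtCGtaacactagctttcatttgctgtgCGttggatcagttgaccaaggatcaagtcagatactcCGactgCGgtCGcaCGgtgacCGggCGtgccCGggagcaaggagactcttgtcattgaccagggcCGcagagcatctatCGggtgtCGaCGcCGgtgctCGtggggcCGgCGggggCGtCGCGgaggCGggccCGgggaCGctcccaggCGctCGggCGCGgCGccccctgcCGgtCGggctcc
Cacna2d1: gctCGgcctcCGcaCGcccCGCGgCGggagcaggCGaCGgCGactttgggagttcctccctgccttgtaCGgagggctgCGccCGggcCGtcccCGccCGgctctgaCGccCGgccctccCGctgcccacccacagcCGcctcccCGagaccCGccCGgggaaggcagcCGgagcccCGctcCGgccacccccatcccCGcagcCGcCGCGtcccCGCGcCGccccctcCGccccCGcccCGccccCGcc
Scn7a: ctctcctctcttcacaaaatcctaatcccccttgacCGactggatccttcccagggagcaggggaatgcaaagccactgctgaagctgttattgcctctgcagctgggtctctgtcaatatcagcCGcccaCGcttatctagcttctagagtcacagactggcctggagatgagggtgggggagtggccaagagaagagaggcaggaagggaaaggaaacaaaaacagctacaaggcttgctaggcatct
Scn1a: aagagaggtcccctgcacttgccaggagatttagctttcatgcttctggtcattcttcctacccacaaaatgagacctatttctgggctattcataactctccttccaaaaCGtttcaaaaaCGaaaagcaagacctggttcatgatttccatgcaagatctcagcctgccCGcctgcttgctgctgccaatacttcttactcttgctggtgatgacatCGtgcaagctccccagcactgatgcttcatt
The window shown for Scn8a is chr15:100870395-100870644 on the plus strand, that for Cacna2d1 chr5:15934441-15934690 on the plus strand, that for Scn7a chr2:66784911-66785160 on the minus strand and that for Scn1a chr2:66440838-66441087 on the minus strand. The Cacna2d1 window held 36 CG dinucleotides, the first Scn8a window 30, Cacna2d2 34 and Cacna2d3 30, whereas Scn7a held 3, Scn1a 4 and the Scn2a windows 2 and 9. A second Scn8a start had 9. Over all 32851 promoters of the table the median was 6 (quartiles 2 and 16). The GC box GGGCGG, searched on both strands, was present for Cacna2d1, Cacna2d2, Cacna2d3 and Scn7a and in 32.7% of all promoters. The letters TATAAA, on both strands, occurred in the second Scn2a window and in 12.4% of all promoters.

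Among sodium channels, Scn8a, rather than Scn1a, Scn2a or Scn3a, had the highest mean level in both populations with appreciable channel RNA, although in CaMKII positive cells it did not differ from Scn7a beyond the spread. Per kb of exon, Scn8a stood at 1.50 ± 0.513 CPM (SD, n = 10) in CaMKII positive cells and at 2.05 ± 0.409 CPM (SD, n = 17) in ACSA2-positive cells. Its level was 23.7 CPM on average in CaMKII positive libraries (11.4 to 33.2) and 32.4 CPM in ACSA2-positive libraries (21.0 to 47.4). It was 1.73 CPM (0.479 to 3.65, n = 16) in double-positive and 0.633 CPM (0.188 to 1.39, n = 15) in CD11b-positive libraries, and neither range reached those of the other 2 populations. Scn8a made up 60.8 ± 16.1% of the summed length-scaled level of the 5 sodium channels in ACSA2-positive cells and 40.5 ± 19.8% in CaMKII positive cells.

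Scn2a averaged 10.4 ± 3.13 CPM in CaMKII positive libraries (6.99 to 16.8) and 4.61 ± 4.01 CPM in ACSA2-positive libraries (1.38 to 19.4). Scn3a averaged 6.41 ± 2.14 CPM (3.52 to 9.59) and 0.970 ± 0.986 CPM (0 to 3.81) in the same order. Scn1a had the lowest mean of the 9 genes per kb in both, with 2.17 ± 1.52 CPM (0 to 4.33) in CaMKII positive and 0.562 ± 0.576 CPM (0 to 2.05) in ACSA2-positive libraries, and 1 CaMKII positive and 4 ACSA2-positive libraries had no count of it. These 3 genes are paralogs that share sequence. Of the 50-base windows of their transcripts, 4.03% of Scn1a and 6.49% of Scn3a also occur in other genes. All of those are sodium channel genes apart from Gm13629. The reads were longer than these windows, so a shared window alone does not make a read ambiguous. How a read that matched more than 1 gene was counted is not known here. For Scn2a the share was 5.76%, and its windows also occur in many unrelated genes.

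Among alpha2delta genes, Cacna2d2 was the highest, with 38.5 ± 8.69 CPM in CaMKII positive libraries (25.5 to 54.5) and 50.8 ± 10.1 CPM in ACSA2-positive libraries (32.7 to 66.8). Per kb it was 4.84 ± 1.09 and 6.40 ± 1.28 CPM, the highest of the 9 genes in both populations, and it formed 72.4 ± 10.0% and 70.2 ± 7.07% of the length-scaled alpha2delta level. Cacna2d1, the other gabapentinoid-binding subunit, averaged 14.3 ± 4.98 CPM (9.19 to 26.3) and 25.1 ± 6.95 CPM (16.5 to 39.9). Cacna2d3 averaged 2.84 ± 2.35 and 2.06 ± 1.24 CPM, and Cacna2d4, best known from the retina, 3.48 ± 2.53 and 4.11 ± 3.43 CPM. The 2 gabapentinoid-binding genes thus carried most of the alpha2delta RNA in both populations, and Cacna2d3 and Cacna2d4 together held the small remainder.

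**Figure D1:**
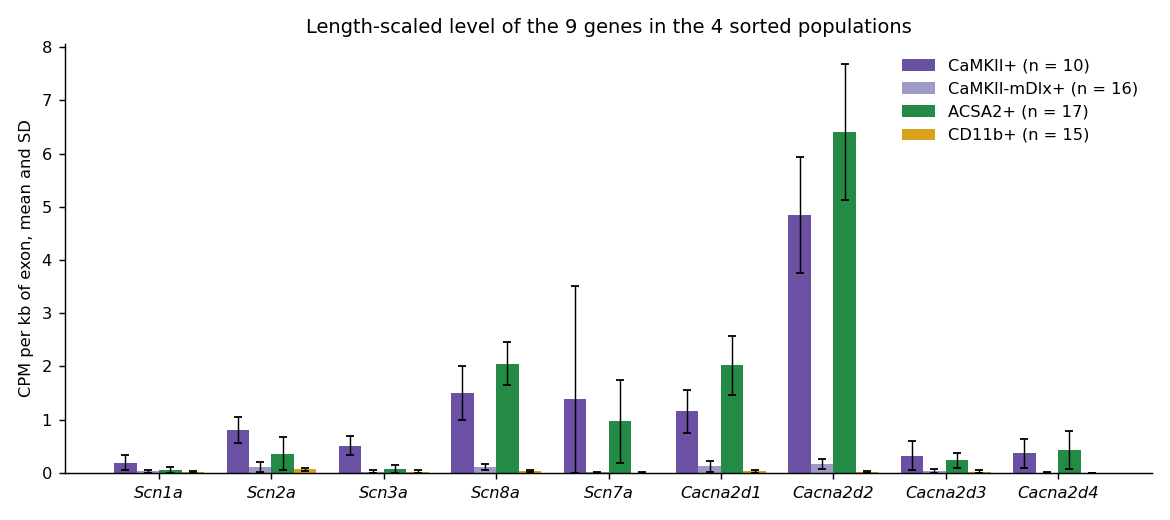
Mean level per kb of exon (CPM per kb, vertical axis) of each of the 9 genes in the 4 sorted populations, with bars starting at 0 and lines showing the SD over libraries, cut at 0. Cacna2d2 stands highest at 4.84 in CaMKII positive and 6.40 in ACSA2-positive cells, and the double-positive and CD11b-positive bars lie near 0 for all 9 genes.

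Within each library, neighbours in the order of level per kb were compared by a two-sided permutation test over libraries, exact in CaMKII positive cells, with adjustment over 16 comparisons. In CaMKII positive cells Cacna2d2 exceeded Scn8a in 10 of 10 libraries by 3.34 ± 0.851 CPM per kb (adjusted p = 0.00625, exact permutation), and Scn2a exceeded Scn3a in 7 of 10 by 0.299 ± 0.293 CPM per kb (adjusted p = 0.0357, exact permutation). The other 6 neighbours in that order did not differ beyond their spread, among them Scn8a and Scn7a (adjusted p = 0.928, exact permutation) and Cacna2d1 and Scn2a (adjusted p = 0.0820, exact permutation). In ACSA2-positive cells Cacna2d2 exceeded Scn8a in 17 of 17 libraries by 4.35 ± 1.24 CPM per kb (adjusted p = 0.00032, permutation test). Cacna2d1 exceeded Scn7a (adjusted p = 0.00625), Scn7a exceeded Cacna2d4 (adjusted p = 0.0287), Scn2a exceeded Cacna2d3 (adjusted p = 0.00625) and Cacna2d3 exceeded Scn3a (adjusted p = 0.00032) by the same permutation test. Scn8a and Cacna2d1 were 2.05 and 2.02 CPM per kb there and did not differ beyond their spread (adjusted p = 0.836), nor did Cacna2d4 and Scn2a (adjusted p = 0.750) or Scn3a and Scn1a (adjusted p = 0.130).

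In double-positive and CD11b-positive libraries the means of the 9 genes were low, at 1.73 CPM or less, and those of several genes were near the level of 3 counts per library (0.132 and 0.118 CPM on average). Scn8a and Cacna2d2 nevertheless had counts in 16 of 16 double-positive libraries, 738 and 575 in all. The highest means in double-positive cells, not scaled by length, were those of Scn8a, Cacna2d1 (1.55 ± 1.26 CPM), Scn2a (1.33 ± 1.17 CPM) and Cacna2d2 (1.29 ± 0.743 CPM). Per kb of exon Cacna2d2 had the highest mean there (0.163 CPM per kb), above Cacna2d1 (0.125), Scn8a (0.110) and Scn2a (0.105). In CD11b-positive cells Scn2a was the highest at 0.819 ± 0.424 CPM (0 to 1.39). Scn7a had a count in 4 of 16 double-positive and 2 of 15 CD11b-positive libraries. Cacna2d4 had a count in 5 of 16 double-positive libraries and in none of the 15 CD11b-positive libraries, where 3 counts would be 0.118 CPM on average.

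**Figure D2:**
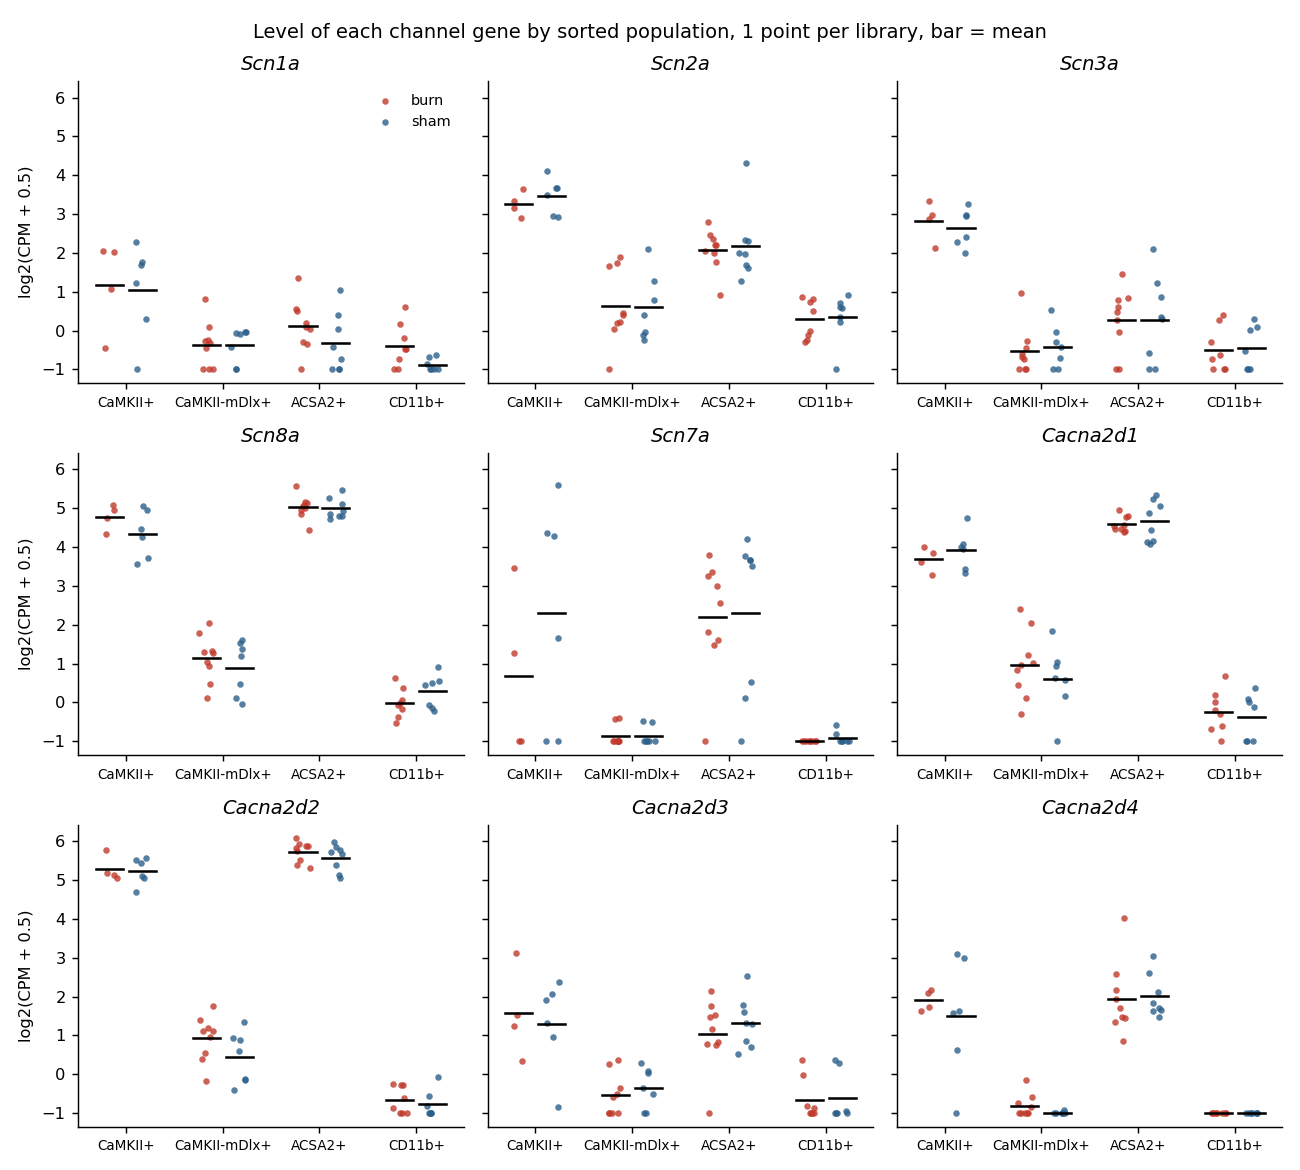
Level of each gene on the log2(CPM + 0.5) scale in every library, by sorted population, with burn-injured mice in red, sham-injured mice in blue and the group mean as a bar. A value of -1 is a count of 0. Burn and sham points overlap for all 9 genes in all 4 populations, and Scn7a spreads widest in CaMKII positive cells, from 0 to 48.3 CPM.

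The populations were compared in 1 edgeR quasi-likelihood fit of all 33150 genes, in which a gene was called where p.adj was 0.05 or less and the log2FC was 1 or more in either direction. Between CaMKII positive and ACSA2-positive cells 3 of the 5 sodium channels, Scn1a, Scn2a and Scn3a, were called higher in the former, Scn8a and Scn7a were not called, and no alpha2delta gene was called. Scn3a was higher by a log2FC of 2.59 (SE 0.776, p.adj = 0.00679), Scn1a by 2.28 (SE 0.825, p.adj = 0.0271) and Scn2a by 1.11 (SE 0.431, p.adj = 0.0406), that is 3 of 9 genes higher and 0 lower, where 14.1% of all genes tested were called higher and 4.34% lower. Library ranges overlapped for all 9 genes in this comparison, as they did for all but 5.82% of genes. The call for Scn1a did not hold with mouse as a replicate block (log2FC 2.17, p.adj = 0.138), within batch 3 alone (log2FC 2.63, p.adj = 0.120), nor without mouse 16 or mouse 19 (p.adj = 0.0571 and 0.0794). The call for Scn2a was lost without any 1 of 7 mice (numbers 7, 8, 17, 18, 19, 20 and 24, p.adj 0.0502 to 0.0813), and within sham mice alone, a fit with fewer libraries, none of the 3 was called (log2FC 3.10, 1.14 and 2.41 with p.adj = 0.0864, 0.225 and 0.149 for Scn1a, Scn2a and Scn3a). The excitatory neuron markers summed to 58.2 ± 35.4 CPM in CaMKII positive and 48.5 ± 61.6 CPM in ACSA2-positive cells, the highest ACSA2-positive library being sham mouse 13 at 280 CPM. Other lists also differed: inhibitory neuron markers summed to 14.2 and 7.73 CPM, the 7 oligodendrocyte precursor markers to 407 and 107 CPM, oligodendrocyte markers to 994 and 279 CPM and endothelial markers to 6161 and 756 CPM, while the 9 general neuron markers summed to 436 and 613 CPM, most of it Map2 (347 and 560 CPM), and had a median of 11.1 and 5.78 CPM. Their part in these differences was not tested.

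The remaining 6 genes gave values on either side of 0 in this comparison. The log2FC was -0.57 (95% interval -1.03 to -0.11, p.adj = 0.0544) for Scn8a, -0.93 (-1.69 to -0.17, p.adj = 0.0581) for Cacna2d1 and -0.56 (-1.12 to -0.00088, p.adj = 0.129) for Cacna2d2. The interval of Cacna2d2 stops short of 0, but its unadjusted edgeR p was not under 0.05. Over the same libraries the astrocyte markers summed to 20341 CPM in CaMKII positive and 42140 CPM in ACSA2-positive cells. Scn7a, Cacna2d3 and Cacna2d4 gave -0.21 (-1.75 to 1.34), 0.39 (-1.08 to 1.86) and -0.59 (-1.70 to 0.53). The median over the 5 sodium channels was 1.11 and over the 4 alpha2delta genes -0.57, beside -0.03 over all genes. Scaling by library size alone in place of TMM moved the median of all genes to 0.15, and that between CaMKII positive and double-positive cells from 0.14 to 0.25.

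All 9 genes were higher in CaMKII positive than in double-positive cells, where 27.7% of genes tested were called higher. The log2FC ran from 2.88 for Scn2a (SE 0.432, p.adj = 5.8e-08) to 6.65 for Scn7a (SE 1.04, p.adj = 1.5e-07), the last against 37 counts in 4 of 16 double-positive libraries and so resting on few counts, with 4.82 for Cacna2d2 (SE 0.313, p.adj = 1.7e-20) and 3.73 for Scn8a (SE 0.245, p.adj = 2.9e-20). Library ranges did not overlap for Scn2a, Scn3a, Scn8a, Cacna2d1 and Cacna2d2, a pattern met by 18.8% of genes tested. Within sham mice alone Scn1a (log2FC 3.01, p.adj = 0.0530) and Cacna2d3 (2.54, p.adj = 0.0590) were not called. Against CD11b-positive cells all 9 were again higher, where 29.6% of genes were called higher. The log2FC was 8.51 for Cacna2d2 (SE 0.397), against only 39 counts in 8 of 15 CD11b-positive libraries, 5.13 for Cacna2d1 (SE 0.432), 5.12 for Scn8a (SE 0.264) and 3.58 for Scn2a (SE 0.449). The same 5 genes as against double-positive cells had ranges that did not overlap, beside 19.2% of all genes. Cacna2d4, with no count in CD11b-positive cells, was at least 29.4-fold higher in CaMKII positive and at least 34.7-fold higher in ACSA2-positive cells, measured against 3 counts per library.

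The contrast of ACSA2-positive with CD11b-positive cells also called all 9 genes higher, beside 32.1% of all genes, from 1.75 for Scn1a (SE 0.749, p.adj = 0.0355) to 9.07 for Cacna2d2 (SE 0.393, p.adj = 4.3e-29) among genes with counts in both. The CD11b-positive levels behind these values, 0.192 CPM for Scn1a and 0.127 CPM for Cacna2d2, rest on 103 and 39 counts. Ranges did not overlap for Scn8a, Cacna2d1, Cacna2d2 and Cacna2d4, beside 23.4% of all genes. Scn1a lost its call with mouse as a replicate block (p.adj = 0.0677), in batch 3 alone (p.adj = 0.146) and without any 1 of mice 8, 10, 13, 18, 21 and 23, and Scn3a in batch 3 alone (p.adj = 0.281) and without mouse 13 or 24 (p.adj = 0.0587 and 0.0572). Relative to ACSA2-positive cells, 8 of 9 genes were lower in double-positive cells, where 29.1% of genes were called lower. The same 4 genes had ranges that did not overlap, beside 22.9% of all genes. The exception among the calls was Scn1a at -0.77 (SE 0.714, p.adj = 0.342). Scn3a, at -1.82 (p.adj = 0.0192), lost its call in batch 3 alone (p.adj = 0.0686) and without mouse 13 or 24 (p.adj = 0.0551 and 0.0515).

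Between the double-positive and the CD11b-positive cells, both rich in microglia markers, fewer genes differed. Cacna2d2 was higher in double-positive cells by a log2FC of 3.69 (SE 0.388, p.adj = 5.9e-11; 575 counts against 39), Cacna2d1 by 1.99 (SE 0.385, p.adj = 0.000155) and Scn8a by 1.39 (SE 0.235, p.adj = 1.3e-05). Cacna2d4 was also called, but both of its levels were under the limit of 3 counts per library. With these, 4 of 9 genes were called higher, where 6.37% of all genes were. All 9 ranges overlapped, as they did for all but 0.241% of genes, and the count of all genes called fell from 2647 to 1529 with mouse as a replicate block. Among sham mice alone Scn8a (p.adj = 0.244), Cacna2d1 (p.adj = 0.132) and Cacna2d4 (p.adj = 0.693) were not called, which left Cacna2d2. The astrocyte markers, low in both, summed to 931 CPM (479 to 1438) in double-positive and 256 CPM (203 to 357) in CD11b-positive libraries, and 10 of the 10 had counts in each population. In the same order, oligodendrocyte precursor markers summed to 23.2 and 7.10 CPM, mural cell markers to 28.4 and 9.35 CPM and general neuron markers to 33.3 and 14.9 CPM. Border macrophage or monocyte markers went the other way, at 141 and 364 CPM. The part of these lists in the differences was not tested.

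**Figure D3:**
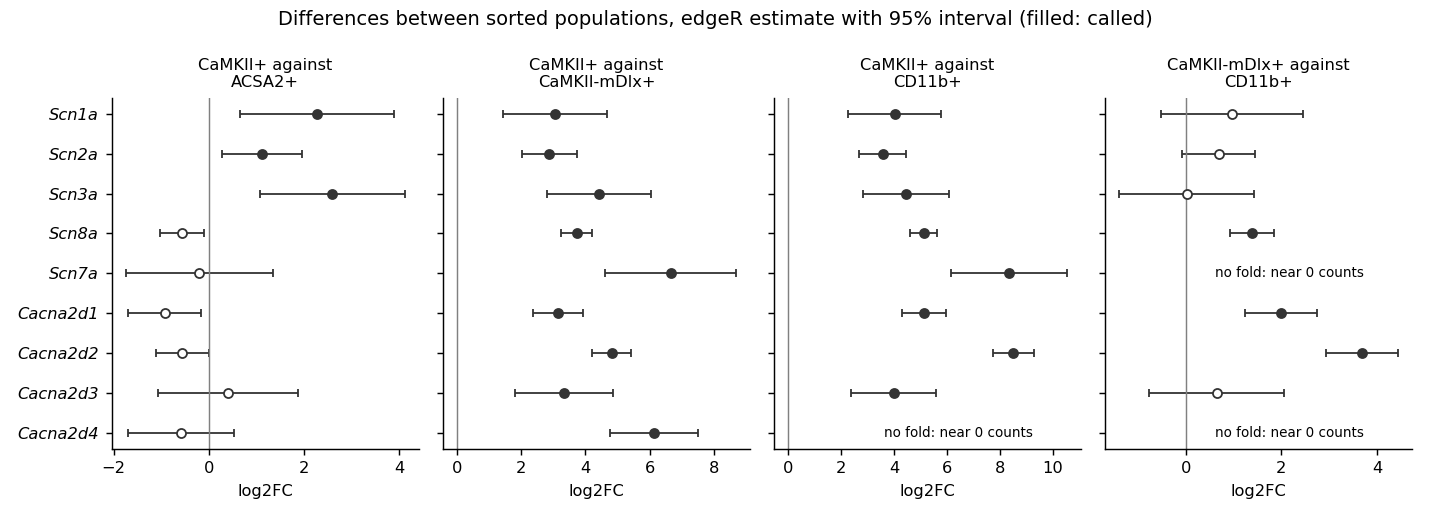
log2FC between sorted populations for each gene, with 95% intervals, from the edgeR fit of all genes. Filled points passed the thresholds, and genes at or under 3 counts per library in both populations, or with no count in one, have no point. In the first panel Scn1a, Scn2a and Scn3a lie to the right of 0 (2.28, 1.11 and 2.59) and Scn8a, Cacna2d1 and Cacna2d2 to the left (-0.57, -0.93 and -0.56).

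In CaMKII positive cells Scn7a varied most from library to library, with the largest SD among the genes examined (15.5 CPM). Its SD in ACSA2-positive cells was 5.70 CPM, below those of Scn8a, Cacna2d1 and Cacna2d2 (6.45, 6.95 and 10.1 CPM). In CaMKII positive cells Scn7a was 0, 0, 1.92 and 10.6 CPM in the 4 burn libraries. It was 0, 0, 2.64, 18.9, 19.9 and 48.3 CPM in the 6 sham libraries. In ACSA2-positive cells it was between 0 and 13.3 CPM (median 5.41) in burn and between 0 and 18.0 CPM (median 11.7) in sham libraries. Burn and sham overlapped in both populations, and libraries with no count occurred in both groups.

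The genes nearest in level to Scn7a included genes of motile cilia, and whether such genes ran with Scn7a as a group was not tested. After the mean of each population and batch was removed, the genes most like it among 12476 protein-coding genes over 57 libraries were Cfap52 (Pearson r = 0.96), Zfp474 (r = 0.95) and Dynlrb2 (r = 0.95). Within the populations r with Cfap52 was 1.00 in CaMKII positive (10 libraries), 0.88 in ACSA2-positive and 0.32 in double-positive libraries, and over all 57 libraries Spearman's rho was 0.76. By Spearman's rho, Cfap52, Zfp474 and Dynlrb2 ranked 8, 24 and 5 among the 12476 genes. The libraries share sorts and mice, and the genes were picked for the highest r, so these values describe the data. A list of 7 ependymal genes (Foxj1, Ccdc153, Tmem212, Rsph1, Pifo, Dnah12 and Tekt1) was then chosen after these values were seen. Its summed level in CaMKII positive cells was 2.92, 5.29, 6.99 and 17.6 CPM in the 4 libraries with no Scn7a count, 37.1 and 37.6 CPM in the libraries at 2.64 and 1.92 CPM of Scn7a, and 99.7, 179, 355 and 648 CPM in those at 10.6, 18.9, 19.9 and 48.3 CPM. In ACSA2-positive cells the 2 libraries with no Scn7a count had sums of 2.48 and 4.35 CPM, and the library with the highest Scn7a, at 18.0 CPM, had 185 CPM. The order was not strict there: the 3 libraries with the largest sums, 252, 206 and 193 CPM, had Scn7a at 11.0, 7.53 and 12.3 CPM. In double-positive and CD11b-positive cells the sum stayed at or under 4.63 CPM. All 7 genes had counts in both populations with Scn7a, and the part of ependymal RNA in the level of Scn7a was not tested.

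**Figure D4:**
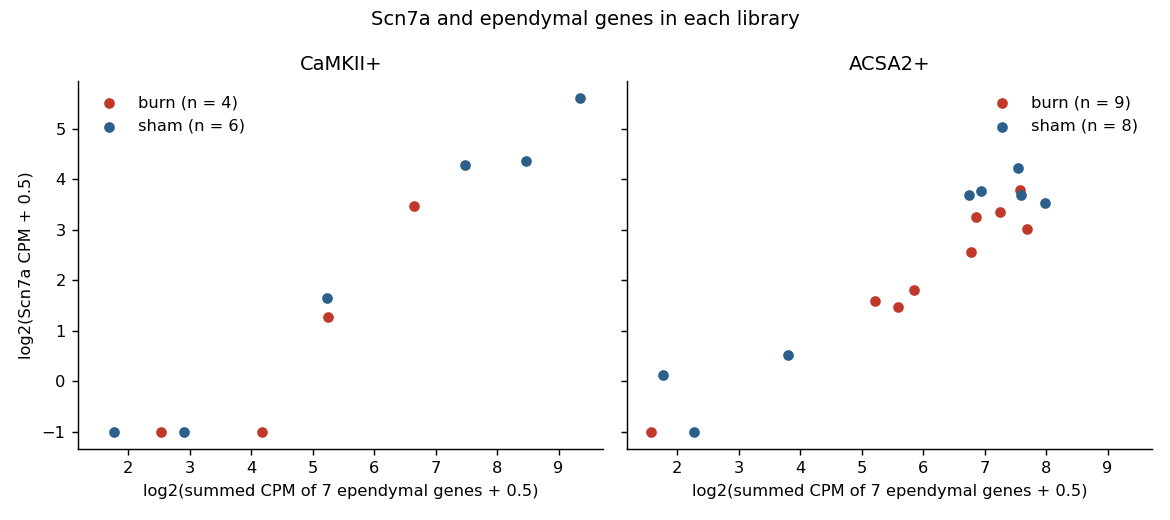
Scn7a level, log2(CPM + 0.5), against the summed level of 7 ependymal genes on the same scale, 1 point per library, for CaMKII positive cells on the left and ACSA2-positive cells on the right, with burn in red and sham in blue. In CaMKII positive cells the 4 libraries with no Scn7a count have the 4 lowest ependymal sums (2.92 to 17.6 CPM), and the library at 48.3 CPM of Scn7a has the highest (648 CPM).

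For the other genes the likeness was weaker, with r between 0.50 and 0.78 for the 3 genes nearest to each. For Scn2a they were Anks1b (r = 0.68), Tmem151b (0.64) and Dscam (0.58), and for Scn3a Erbb3, a neuregulin receptor of the oligodendrocyte lineage (0.68), Ptprn (0.65) and Lypd1 (0.59). Nearest to Scn8a were Vwa8 (0.63), Gm14326 (0.62) and Dlg3 (0.61), and to Scn1a Grid2ip (0.64), Trip4 (0.61) and Spg7 (0.56). Cacna2d1 ran nearest to Nfasc, which encodes the node and initial segment protein neurofascin (0.64), Lysmd4 (0.62) and Ncam2 (0.58). For Cacna2d2 they were Nkx2-2, a transcription factor of the oligodendrocyte lineage (0.53), Kcnd2 (0.50) and Rpp14 (0.50). Cacna2d3 gave Myt1l (0.67), Vsnl1 (0.64) and Acvr2b (0.59), and Cacna2d4 gave Rogdi (0.78), Clcf1 (0.77) and Rbm47 (0.74). These values pool the populations and did not hold in each: within CaMKII positive libraries r with Scn2a was -0.04 for Tmem151b and -0.36 for Dscam, and within ACSA2-positive libraries r with Cacna2d1 was 0.07 for Lysmd4 and -0.21 for Ncam2. With Spearman's rho in place of Pearson's r, 8 of the 27 genes stayed among the 3 nearest.

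Burn injury was compared with sham in each population, the comparison the study was designed for. No gene of the 9 was called in any of the 4 populations, where 0% of all genes tested were called by edgeR. In CaMKII positive cells 0 of 28107 genes were called (1096 at an unadjusted p under 0.05, 3.9%, and 3 called by DESeq2), in double-positive cells 0 of 26707 (1872, 7.01%, and 2 by DESeq2), in ACSA2-positive cells 0 of 27930 (2984, 10.7%, and 176 by DESeq2) and in CD11b-positive cells 0 of 26079 (2036, 7.81%, and 245 by DESeq2). Library ranges of burn and sham overlapped for every one of the 9 genes, apart from Cacna2d4 in CD11b-positive cells, which had no count and was not tested, whereas 0.37% of genes in CaMKII positive cells did not overlap, and 0%, 0.0143% and 0.0153% in double-positive, ACSA2-positive and CD11b-positive cells.

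For the genes with most counts the intervals were narrow in ACSA2-positive cells. Scn8a was 32.8 ± 6.93 CPM in burn (n = 9; 21.0 to 47.4) and 31.9 ± 6.29 CPM in sham (n = 8; 26.1 to 44.0), a log2FC of 0.01 with a 95% interval of -0.23 to 0.26. Cacna2d2 was 53.2 ± 9.48 CPM in burn and 48.2 ± 10.8 CPM in sham (log2FC 0.18, -0.10 to 0.45). Cacna2d1 was 23.9 ± 3.51 CPM in burn and 26.5 ± 9.60 CPM in sham (log2FC -0.11, -0.42 to 0.20). For these 3 genes and Scn2a (-0.09, -0.87 to 0.68) the intervals held no change as large as the called threshold of 1. Those of Cacna2d4 (0.25, -0.58 to 1.07), Cacna2d3 (-0.13, -1.27 to 1.02), Scn7a (0.32, -1.06 to 1.69), Scn3a (-0.04, -2.11 to 2.02) and Scn1a (1.31, -0.97 to 3.59) were wider. For Scn7a the fitted sign, from the model with batch, was opposite to that of the means (5.86 CPM in burn and 8.54 CPM in sham), and the log2FC was -0.54 without the batch term and -0.67 in batch 3 alone.

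In CaMKII positive cells Cacna2d2 was 54.5, 35.6, 34.7 and 32.4 CPM in the 4 burn libraries and 25.5 to 46.8 CPM (median 38.3) in the 6 sham libraries (log2FC 0.05, -0.40 to 0.50). Cacna2d1 was 9.19, 11.8, 13.9 and 15.5 CPM in burn and 9.57 to 26.3 CPM (median 15.3) in sham (log2FC -0.29, -0.87 to 0.29). Scn8a was 19.9, 26.5, 30.4 and 33.2 CPM in burn and 11.4 to 32.9 CPM (median 20.0) in sham (log2FC 0.37, -0.24 to 0.99). Of the burn libraries, 1 lay above the sham range for Cacna2d2 (54.5 CPM), 1 above it for Scn8a (33.2 CPM) and 1 below it for Cacna2d1 (9.19 CPM), and the rest lay inside. Scn2a was 6.99, 8.45, 9.67 and 12.1 CPM in burn and 7.11 to 16.8 CPM in sham (log2FC -0.25, -0.95 to 0.46), and Scn3a 3.84, 6.87, 7.41 and 9.59 CPM in burn and 3.52 to 9.01 CPM in sham (log2FC 0.19, -0.67 to 1.06). Scn7a averaged 3.12 CPM in burn and 15.0 CPM in sham (log2FC -1.91, -5.29 to 1.48), beside 40.0 and 205 CPM for the ependymal genes. With 1 library left out the Scn7a log2FC ran from -6.91 (without burn mouse 22) to -1.32 (without sham mouse 8, the library at 48.3 CPM). Over the 9 genes the median log2FC was 0.00 in CaMKII positive cells and 0.01 in ACSA2-positive cells, beside 0.02 and 0.05 over all genes.

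In double-positive cells Scn7a and Cacna2d4 were at or under 3 counts per library in both groups and get no fold. The other 7 genes gave log2FC between -1.11 for Scn3a and 0.33 for Cacna2d1, with unadjusted p of 0.377 or more. Batch 1 held 3 of the 9 burn libraries of this population and 0 sham libraries. With the batch term in the fit, those 3 libraries do not inform the folds. In CD11b-positive cells Scn1a was the 1 gene of the 9 with an unadjusted p under 0.05 (log2FC 3.09, SE 1.47, p = 0.0463, p.adj = 0.639). Its level there was 0.320 ± 0.350 CPM in burn (0 to 1.02, counts in 6 of 8 libraries) and 0.0462 ± 0.0638 CPM in sham (0 to 0.147, counts in 3 of 7), which was 91 counts in all burn and 12 in all sham libraries. The sham level lay under 3 counts per library, and the size of this fold rests on those few counts. Scn7a had no count in the 8 burn libraries and 12 counts over 2 of the 7 sham libraries, both levels under the limit of 3 counts per library. DESeq2 called it all the same, with a p.adj of 1.8e-06.

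**Figure D5:**
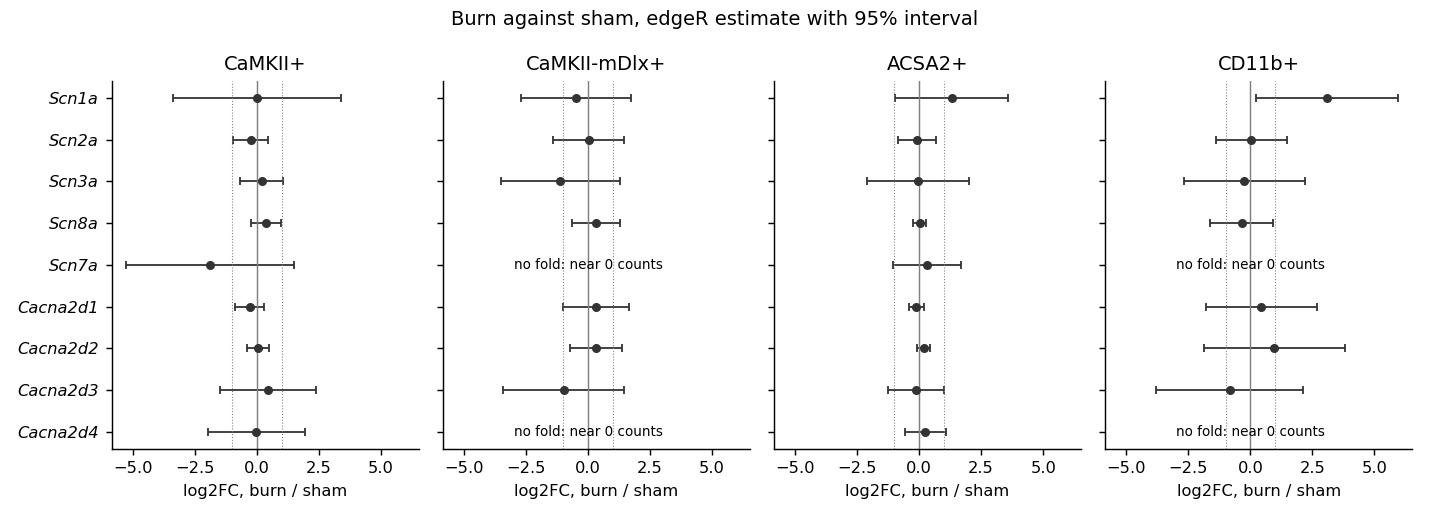
log2FC of burn over sham for each gene in each sorted population, with 95% intervals from the edgeR fits, a solid line at 0 and dotted lines at -1 and 1. Genes at or under 3 counts per library in both groups, or with no count in one, have no point. Intervals are narrowest for Scn8a, Cacna2d1 and Cacna2d2 in ACSA2-positive cells, and Scn1a in CD11b-positive cells (3.09) is the 1 interval that does not include 0.

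Differences in the effect of burn between populations were tested as interactions. Between CaMKII positive and double-positive cells 3 of 30693 genes were called (0.00977%) and between CD11b-positive and ACSA2-positive cells 1 of 30983 (0.00323%). None of the 9 genes was called, and 0 of the 9 had an unadjusted p under 0.05 in either, where 6.01% and 8.67% of all genes did. Cacna2d4, with no count in CD11b-positive cells, gave no usable estimate in the second. Both counts fell to 0 with mouse as a replicate block.

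The partners of these channels were taken from lists of 38 genes: other sodium channel alpha subunits, beta subunits, anchors and intracellular partners, the sodium leak channel complex, calcium channel alpha1 and beta subunits, and the thrombospondins with the alpha2delta-like gene Cachd1. For burn against sham 0 of the 33 to 36 partners tested were called in any population. The lowest unadjusted p in each population were those of Scn3b in CaMKII positive cells (log2FC -0.93, p = 0.0454, p.adj = 1.00), Fgf13 in double-positive cells (-0.52, p = 0.00763, p.adj = 0.708), Cacna1h in ACSA2-positive cells (0.84, p = 0.000845, p.adj = 0.458) and Scn4a in CD11b-positive cells (3.38, p = 0.0261, p.adj = 0.639).

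Partners differed more between populations, and not all in the direction of the pore-forming genes. Scn2b, Scn3b and Scn4b, which encode sodium channel beta subunits, were higher in CaMKII positive than in double-positive cells by 3.32, 4.20 and 3.29 on the log2 scale. In contrast, Cacna1d, the pore of Cav1.3 channels, was the highest alpha1 gene per kb in all 4 populations and stood at 132 ± 13.5 CPM in double-positive and 118 ± 19.3 CPM in CD11b-positive cells, against 41.1 ± 16.9 CPM in CaMKII positive and 49.1 ± 7.69 CPM in ACSA2-positive cells. Cacnb2 was likewise higher in the double-positive (33.2 CPM) and CD11b-positive cells (27.0 CPM) than in CaMKII positive (6.40 CPM) and ACSA2-positive cells (4.72 CPM). Of 37 partners tested between CaMKII positive and double-positive cells, 24 were higher in the former and 4 lower, among them Cacna1d and Cacnb2, beside 27.7% and 17.5% of all genes, with a median log2FC of 2.59 beside 0.14 over all genes.

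Between CaMKII positive and ACSA2-positive cells 6 of 37 partners were called higher and 3 lower, beside 14.1% and 4.34% of all genes, so the count higher is near that of all genes. Higher were Ank3, the ankyrin that anchors sodium channels at the initial segment (1.51, SE 0.388), Scn4b (3.41, SE 0.986), Cacnb3 (1.69, SE 0.622), Cacna1s (1.32, SE 0.528), Thbs1 (4.33, SE 0.471) and Thbs2 (1.71, SE 0.456). Lower were Fgf14, an intracellular sodium channel partner (-1.73, SE 0.544), Thbs4 (-2.96, SE 0.533) and Cacna1f, at 0.849 CPM in ACSA2-positive and under 3 counts per library in CaMKII positive cells. Thrombospondins are secreted proteins that bind alpha2delta-1. Thbs1 was 82.2 ± 126 CPM in CaMKII positive, 39.0 ± 13.7 CPM in double-positive, 54.5 ± 21.8 CPM in CD11b-positive and 2.79 ± 2.55 CPM in ACSA2-positive cells, whereas Thbs4 was 31.1 ± 18.8 CPM in ACSA2-positive cells and at most 4.91 CPM on average elsewhere. Cachd1 was 132 ± 10.1 CPM in ACSA2-positive and 96.3 ± 12.8 CPM in CaMKII positive cells, and per kb (21.9 and 16.0 CPM per kb) its mean stood above that of each of the 4 alpha2delta genes in both. Between double-positive and CD11b-positive cells Cachd1 (2.10, SE 0.428) and Cacna1b (2.41, SE 0.689) were higher and Scn4a (0.0180 against 0.239 CPM) was lower.

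Per kb, the highest anchor or intracellular partner was Nedd4l, a ubiquitin ligase that acts on sodium channels, in CaMKII positive cells (6.45 CPM per kb) and Fgf11 in ACSA2-positive (7.97), double-positive (5.28) and CD11b-positive cells (6.63). The highest calcium channel beta subunit was Cacnb1 in CaMKII positive (7.77 CPM per kb) and ACSA2-positive cells (9.71) and Cacnb2 in double-positive (2.51) and CD11b-positive cells (2.04). In the sodium leak channel complex Unc80 led in CaMKII positive (1.77 CPM per kb) and ACSA2-positive cells (1.87) and Unc79 in double-positive (0.479) and CD11b-positive cells (0.539). The other 5 sodium channel alpha subunits had means of at most 0.046 CPM per kb in any population.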

How the data were processed

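RNA-seq counts of 4 sorted cortical populations were analysed. Per the labels and the study's methods, libraries were made with the Illumina Stranded Total RNA kit with Ribo-Zero Plus, reads were trimmed with fastp, aligned with STAR 2.7.1 to GRCm39 (mm10 is also named) and counted with GenomicAlignments. Whether counting used strand is not given in the sources used here. The authors deposited raw counts per Ensembl gene, and 0 columns were left unused. Their normalised tables were not used. As in the study, the 4 libraries of mouse 3 (ulcerated skin) and 1 of mouse 8 (double-positive, 331215 counts) were dropped.

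Counts were tested with edgeR 4.0.16 in R 4.3.3 (glmQLFit and glmQLFTest, TMM, genes with at least 10 counts in total, Benjamini-Hochberg adjustment over all genes). Burn against sham was fitted per population with batch and treatment, and populations in 1 joint fit with batch and treatment. Treatment was not balanced over batches: double-positive cells had 3 burn and 0 sham libraries in batch 1, and CD11b-positive cells 0 burn and 1 sham in batch 2. CaMKII positive cells had 0 libraries in batch 2. A batch with burn or sham libraries alone does not inform the burn fold of that population. Intervals are the log2FC ± 1.96 SE. They are approximate and somewhat narrower than the edgeR test implies, most so in the smaller fits, so an interval can exclude 0 where the unadjusted p does not pass 0.05. A call needed a p.adj of 0.05 or less together with a log2FC of 1 or more in either direction. DESeq2 1.42.0 was an alternative. Other alternatives were RLE size factors, library size only, filterByExpr, no filter, no batch term, batch 3 alone, sham mice alone, dropping the fold threshold, all deposited libraries, and leaving out 1 mouse at a time.

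Libraries of a mouse carry its number in every population, so numbers pair samples from the same animal. Their deviations from group means correlated with a median of 0.0206 to 0.122 across population pairs. Each library is a separate sort, and burn and sham mice are separate animals.

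Fits were tested on simulated counts with known changes. Not all changes were recovered and false calls occurred, most of them in the comparison of CaMKII positive with ACSA2-positive cells. Gene symbols and exon lengths came from GENCODE M21 (GRCm38), which matched 52073 of 56980 identifiers, so exon lengths are of another build than the counts and the only positions given are those of the RefSeq promoter windows (GRCm38.p6). Named are all 9 genes, partners that were called, that were highest per kb or that had the smallest p, and the 3 genes most like each of the 9 by Pearson r of log2(CPM + 0.5) among protein-coding genes with a mean of at least 5 CPM in 1 population. The 9 genes were taken by symbol, without a threshold on their values, but they, the lists and the tests were chosen with earlier results of these data known. Figures were made with Python 3.11.15 and matplotlib 3.10.9. Of the partners, a gene is not reported here.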

Additional observations from a re-analysis of the deposited data

Results flagged for a closer look

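In 10 of the 69 groups of 4 to 9 libraries examined for the 9 genes, the highest library stood apart from the others. The rule was Dixon's gap (0.829 of the range for 4 libraries and 0.493 for 9), which assumes normally spread, independent values. Levels near 0 and genes of 1 library do not meet that, so the number of groups is not set against chance. In ACSA2-positive cells of sham mouse 13, Scn2a was 19.4 CPM (next 4.54 CPM) and Cacna2d3 5.24 CPM (next 2.95 CPM). That library also had the highest sum of excitatory neuron markers of the 17 ACSA2-positive libraries, 280 CPM. In ACSA2-positive cells of burn mouse 24, Cacna2d4 was 15.9 CPM (next 5.53 CPM) and Scn1a 2.05 CPM (next 0.976 CPM). In double-positive cells of burn mouse 10, Scn1a was 1.26 CPM, Scn3a 1.45 CPM and Cacna2d4 0.409 CPM. That library had the highest sums of oligodendrocyte precursor (158 CPM), oligodendrocyte (424 CPM) and endothelial markers (716 CPM) of the 16 double-positive libraries. In CaMKII positive cells of burn mouse 2, the library with the most counts, Cacna2d2 was 54.5 CPM (next 35.6 CPM). In CD11b-positive cells of sham mouse 18 Cacna2d2 was 0.447 CPM, or 8 counts, and in double-positive cells of sham mouse 13 Cacna2d4 was 0.025 CPM, or 1 count.

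Among the libraries left out of the comparisons, the ACSA2-positive library of burn mouse 3 had Scn1a at 1.78 CPM, above the 1.57 CPM of the highest sham library and below the 2.05 CPM of the highest burn library kept. Its Scn2a was 17.2 CPM, against 6.51 CPM in the highest burn library kept and 19.4 CPM in the highest sham library.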

How the results depend on the processing

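The 0 calls of burn against sham held in all 4 populations with RLE size factors, library size only, filterByExpr, without the fold threshold, without the batch term, within batch 3 and with 1 mouse left out at a time (range 0 to 0). DESeq2 called 3 genes in CaMKII positive, 2 in double-positive, 176 in ACSA2-positive and 245 in CD11b-positive cells, no filter on low counts called 14 in double-positive and 4 in ACSA2-positive cells, and all deposited libraries called 136 in double-positive cells. Scn7a in CD11b-positive cells (12 counts in all) was the 1 gene of the 9 called in any of these. Between populations the counts stayed within 1.5 times of the value reported except CaMKII positive against ACSA2-positive cells in sham mice alone (3879 against 6104) and double-positive against CD11b-positive cells (2647) with mouse as a replicate block (1529), in sham mice alone (568) and in batch 3 alone (1056). Beside the lost calls of Scn1a given above, the block on mouse, which pairs the libraries of an animal, changed no other call of the 9 genes. In batch 3 alone the log2FC of Cacna2d4 between double-positive and CD11b-positive cells changed sign to -0.0011. In sham mice alone, calls were also lost for Scn3a between double-positive and ACSA2-positive cells (log2FC -1.94) and for Scn1a and Scn3a between ACSA2-positive and CD11b-positive cells (2.81 and 1.93). For the difference of burn effect, CaMKII positive against double-positive cells had 3 calls, and 0 with the replicate block, 0 in batch 3 alone, 6 with no filter and 2 to 9 with a mouse left out. CD11b-positive against ACSA2-positive cells had 1 call, and 0 with the replicate block, 3 in batch 3 alone, 3 with no filter and 0 to 9 with a mouse left out. The cause of these changes was not tested. Of 36 mean levels, 20 were at least 1 CPM, 21 after TMM scaling and 20 with all deposited libraries. Levels under about 0.2 CPM rest on few counts, and the size of a fold change against them is uncertain.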
